A study of Mus musculus with 2 samples.

Results

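The Hox genes of the mouse lie in the clusters HoxA, HoxB, HoxC and HoxD. Members were all protein-coding genes of the mouse build mm10 whose symbol is Hoxa, Hoxb, Hoxc or Hoxd followed by a number, 39 of 21883 protein-coding genes. A chromatin loop belonged to a cluster when at least 1 of its anchors lay within 2.5 kb of the body of a member. This held for 16 of 15592 loops after middle cerebral artery occlusion (MCAO) and for 10 of 14779 loops after sham surgery.

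The loops were mapped by Hi-C, in which DNA segments that lie close together in the nucleus are joined and sequenced as paired-end tags (PETs). MCAO mice had the artery closed by a filament for 1 h and were killed after 6 h of reperfusion, and sham mice had the same operation without advancing the filament and the same 6 h of recovery. Cortex of the operated side, taken from the ischemic territory and so a mixture of cell types, was used in both groups, and the strain and age of the mice were not stated. The protocol mentions 3 cortices in the groups, without saying whether they were pooled. With a single loop list for each group, differences have no replicate check and no test between groups was made.

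The MCAO library held 40550536 PETs and the sham library 34974213, a depth ratio of 1.16. Each list starts at 10 PETs per loop, so a loop that is not listed can lie just below that number. Intervals are 95% intervals, exact Poisson for numbers of loops and exact Clopper-Pearson for shares, and cover counting error only. Loops are no readout of expression, so the tissue label was not checked against marker genes. In bulk tissue, a contact in fewer cells and a rarer contact in every cell cannot be told apart.

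Hox genes encode homeodomain transcription factors that give body segments, limbs and hindbrain their identity along the head-to-tail axis. Within a cluster the genes stand in the order of their action, with the low numbers (such as Hoxd1) at the 3′ end and the high numbers (Hoxa13, Hoxd13) at the 5′ end. In the embryo, Hoxd genes contact enhancers in gene-poor regulatory deserts on both flanks, and in tissue of the forebrain Hox clusters are known as silenced domains covered by Polycomb proteins. Below, the 3′ flank and the 5′ flank are the regions beyond the low-numbered and the high-numbered end of a cluster.

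Loops were found at all 4 clusters in MCAO and at 3 in sham. HoxD had 6 loops in MCAO (2.20 to 13.1) and 4 in sham (1.09 to 10.2), HoxA 3 (0.619 to 8.77) and 5 (1.62 to 11.7), and HoxB 2 (0.242 to 7.22) and 1 (0.0253 to 5.57). HoxC had 5 in MCAO (1.62 to 11.7) and 0 in sham (0 to 3.69). These intervals overlap at every cluster. Nearly every loop left its cluster: 15 of 16 MCAO loops and 10 of 10 sham loops had the partner anchor outside, while 1 MCAO loop joined both ends of HoxC. The clusters are only 96.9 to 174 kb wide, and the median span over all loops was 309 kb in MCAO and 377 kb in sham. Most listed loops are thus longer than a cluster, so this count alone marks no trait of Hox loops. Partners lay more often on the 3′ flank, with 13 there and 2 on the 5′ flank in MCAO, against 6 and 4 in sham. With a window of 10 kb around the genes the numbers were 13 and 4 in MCAO, against 6 and 6 in sham. No loop of HoxB or HoxC reached a 5′ flank in either list.

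**Figure D1:**
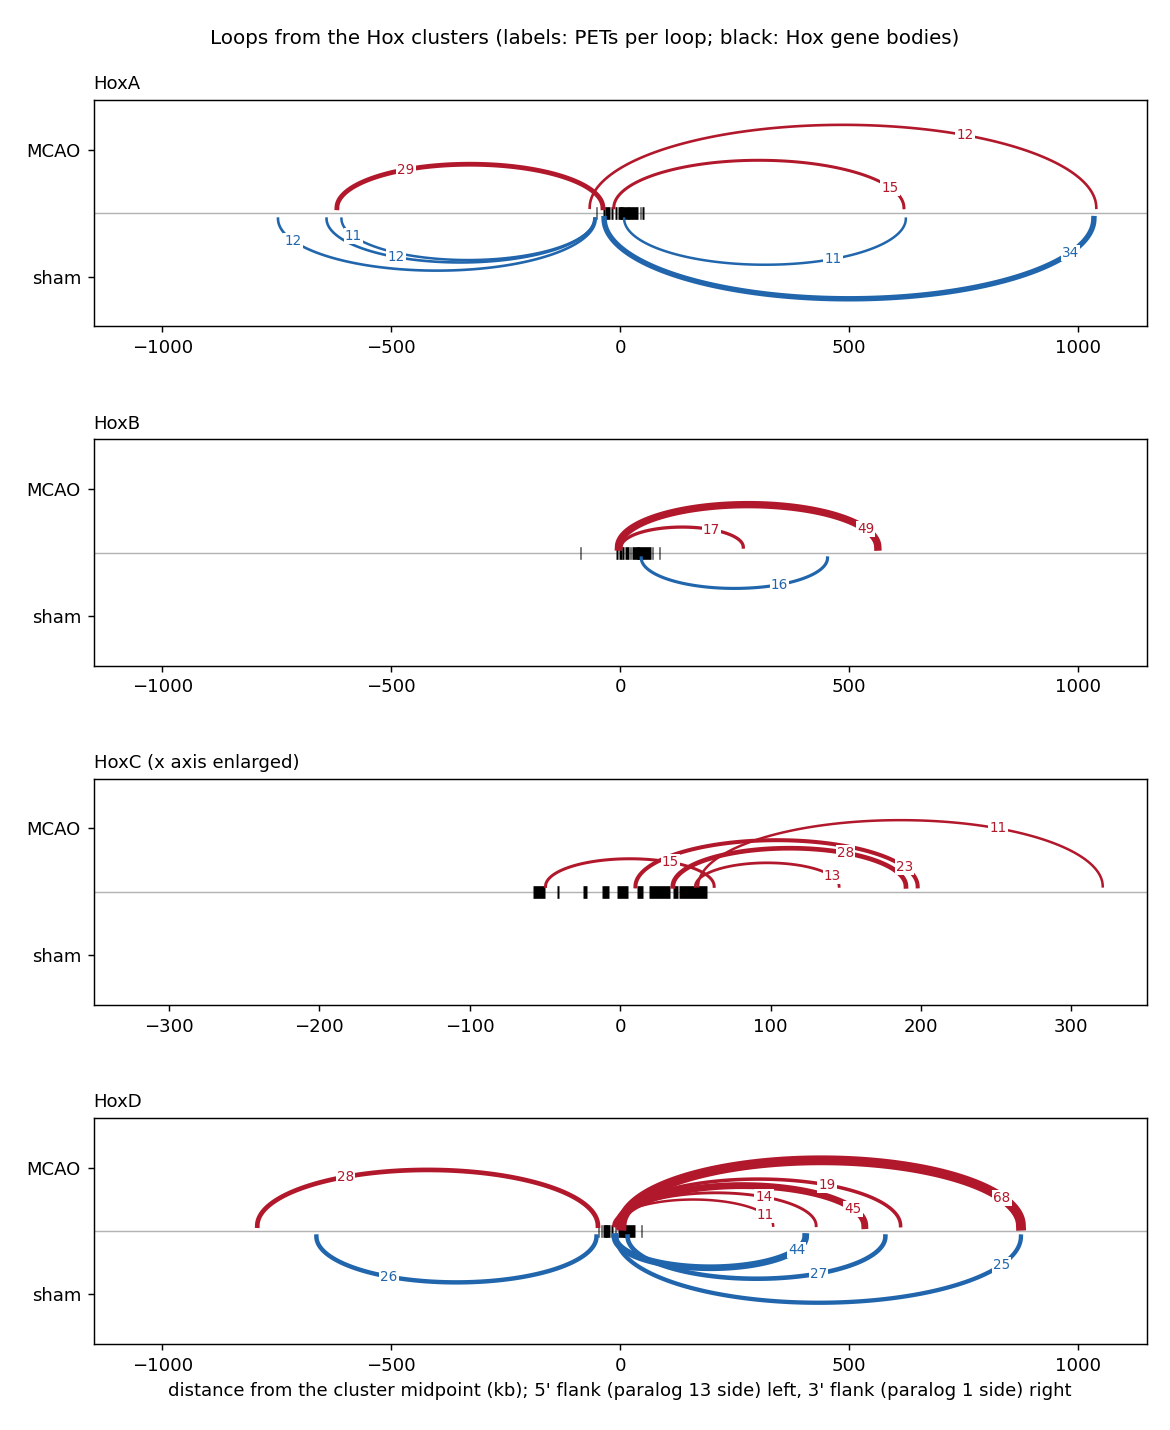
Loops of each Hox cluster drawn as arcs between anchor midpoints, MCAO above the line and sham below it, against distance from the cluster midpoint in kb, with the 5′ flank on the left and the HoxC axis enlarged. Numbers and line widths give PETs per loop and black bars are Hox gene bodies; HoxC has arcs in MCAO alone.

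The sequences upstream of Hoxd8, Hoxd13 and Hoxa13 are shown here, because each lay in every anchor of its cluster with partners on 1 flank. The same held for Hoxd11 and Hoxd12, whose sequences are not shown. As seen once the anchors were compared, all 8 HoxD loops to the 3′ flank, 5 in MCAO and 3 in sham, shared a stretch of 642 bases on chromosome 2, 74704292 to 74704934. It holds the 250 bases before the start of Hoxd8, a gene of trunk and limb patterning. Its ends are the edge of a sham anchor and the edge of an MCAO anchor. Anchors on HoxD were 5.54 to 107 kb wide in MCAO and 47.3 to 77.4 kb wide in sham, so the overlap does not place a contact at Hoxd8. Some of the 8 loops are also the same contact listed in both groups. Both HoxD loops to the 5′ flank instead held the starts of Hoxd11, Hoxd12 and Hoxd13, which pattern the forelimb and the digits, and not that of Hoxd8. The start of Hoxd13 also lay in 1 of 5 MCAO loops and 1 of 3 sham loops to the 3′ flank. The 4 HoxA loops to the 5′ flank, 1 in MCAO and 3 in sham, all held the start of Hoxa13, a gene of digit and urogenital development, which also lay in 1 of 2 MCAO loops and 1 of 2 sham loops of HoxA to the 3′ flank. The sequences are from RefSeq (GRCm38.p6, the assembly of mm10), read along the gene, with CpG dinucleotides in capitals.
Hoxd8, chr2:74704365-74704614, plus strand: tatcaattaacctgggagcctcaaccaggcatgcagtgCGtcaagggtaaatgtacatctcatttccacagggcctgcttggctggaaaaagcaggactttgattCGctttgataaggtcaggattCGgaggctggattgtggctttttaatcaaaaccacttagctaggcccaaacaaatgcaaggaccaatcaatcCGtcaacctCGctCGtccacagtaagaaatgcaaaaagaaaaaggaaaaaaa
Hoxd13, chr2:74667975-74668224, plus strand: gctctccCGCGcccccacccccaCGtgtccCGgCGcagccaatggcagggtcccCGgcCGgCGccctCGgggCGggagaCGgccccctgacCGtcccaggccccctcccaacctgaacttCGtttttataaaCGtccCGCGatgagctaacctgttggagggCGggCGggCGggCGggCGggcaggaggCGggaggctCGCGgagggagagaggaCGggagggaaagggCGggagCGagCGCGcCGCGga
Hoxa13, chr6:52260881-52261130, minus strand: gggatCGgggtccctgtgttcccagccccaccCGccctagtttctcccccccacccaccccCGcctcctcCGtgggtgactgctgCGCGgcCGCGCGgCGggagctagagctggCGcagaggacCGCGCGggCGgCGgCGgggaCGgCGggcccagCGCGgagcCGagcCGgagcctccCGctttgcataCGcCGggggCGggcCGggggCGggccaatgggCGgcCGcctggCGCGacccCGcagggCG

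The Hoxa13 window held 35 CpG dinucleotides and the Hoxd13 window 31, while the Hoxd8 window held 6. Hoxd11, in the same 5′ anchors as Hoxd13, had a window with 2, so these numbers mark no contrast between the flanks. Over the 24 windows of the same length that RefSeq gives for 22 Hox genes the median was 12.5, with a range of 2 at Hoxd11 to 35 at Hoxa13, against a median of 6 over 32841 windows of all genes. The core motif of the insulator protein CTCF, read as CCA, NN, AG, NN and GGC without gaps on either strand, was in 0 of the 24 Hox windows and in 2.07% of all windows. The motif bound by Hox proteins with Pbx proteins, TGATNNAT on either strand, was in 4 of the Hox windows, upstream of Hoxd11, Hoxa2, Hoxb8 and Hoxb1, and in 7.69% of all windows. Anchors are far wider than these windows, so a match or its absence describes only these letters.

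Hox clusters also carry microRNA genes, whose products share seeds across clusters and repress Hox transcripts among other targets. The 4 shown share their seeds in pairs, and Hox anchors covered the gene of each. The sequences are from RefSeq, with the seed, bases 2 to 8, in capitals.
mmu-miR-10a-5p of HoxB, chr11:96317186-96317208, plus strand: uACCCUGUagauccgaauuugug
mmu-miR-10b-5p of HoxD, chr2:74726074-74726096, plus strand: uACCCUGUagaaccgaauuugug
mmu-miR-196a-5p of HoxB, chr11:96265187-96265208, plus strand: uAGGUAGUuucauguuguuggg
mmu-miR-196b-5p of HoxA, chr6:52230129-52230150, minus strand: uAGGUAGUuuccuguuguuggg
The anchors of 3 MCAO loops and 3 sham loops covered Mir10b, which lies within the annotated body of Hoxd4. Mir196b was covered in 2 MCAO loops and 1 sham loop. Mir10a was covered in 0 MCAO loops and 1 sham loop, and Mir196a-1 in 1 and 0. Mir196a-2 of HoxC, which gives the same mature miR-196a-5p, was covered in neither list, while Mir615 of HoxC was covered in 2 MCAO loops and 0 sham loops.

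Counted gene by gene, 30 of 39 Hox genes (76.9%) had a loop in MCAO, where 51.9% of all protein-coding genes did. In sham 23 Hox genes (59.0%) had a loop, against 47.1% of all genes. More loops were listed in MCAO at 19 Hox genes (30.1% of all genes) and fewer at 7 (21.8% of all genes). The number was equal and above 0 at 7 (12.6% of all genes), and 6 had none in either list (35.5% of all genes). The median difference was 0 over Hox genes and 0 over all genes. Neighbouring members share loops, since an anchor covered up to 9 Hox genes, and so these members are not independent of each other.

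Hoxd9, which acts in the forelimb and spinal cord, had 6 loops in MCAO and 2 in sham. Hoxd8 had 5 and 3, and Hoxd3, a gene of neck vertebrae, had 4 and 3. Hoxd10 and Hoxd11 had 4 and 3 each, and Hoxd12 and Hoxd13 had 3 and 2 each. Hoxd4 had 3 and 3, and Hoxd1 had 1 and 1. All 9 members of HoxD thus had loops in both lists, and none had fewer in MCAO.

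Hoxa13 had 2 loops in MCAO and 4 in sham, and Hoxa3, Hoxa5 and Hoxa6, genes of the neck and upper trunk, had 1 and 2 each. Hoxa4 had 0 and 1. Hoxa10 was the only HoxA gene with more in MCAO (2 and 1), while Hoxa7, Hoxa9 and Hoxa11 had 2 and 2.

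In HoxB, Hoxb7, Hoxb8 and Hoxb9 had 2 loops in MCAO and 0 in sham, whereas Hoxb2 and Hoxb4 had 0 and 1. Hoxb8 is known for its role in microglia of the mouse that affect grooming. Hoxb6 had 2 and 1, and Hoxb3 and Hoxb5 had 1 and 1. The hindbrain gene Hoxb1 and Hoxb13, at the ends of the cluster, had none in either list. The sham anchor lay nearer the 3′ end of the cluster than both MCAO anchors, and 1 of these 2 overlapped it.

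In HoxC, Hoxc4 had 4 loops in MCAO and 0 in sham, Hoxc6 had 3 and 0 and Hoxc5 had 2 and 0. These genes act at the level of the neck and forelimb. Hoxc8, Hoxc9, Hoxc12 and Hoxc13 had 1 and 0 each, and Hoxc10 and Hoxc11 had none in either list. A difference of at least 3 loops in favour of MCAO was thus seen at 3 Hox genes, Hoxc4, Hoxc6 and Hoxd9, and at 4.30% of all genes. At least 3 fewer were seen at 0 Hox genes and 2.42% of all genes.

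**Figure D2:**
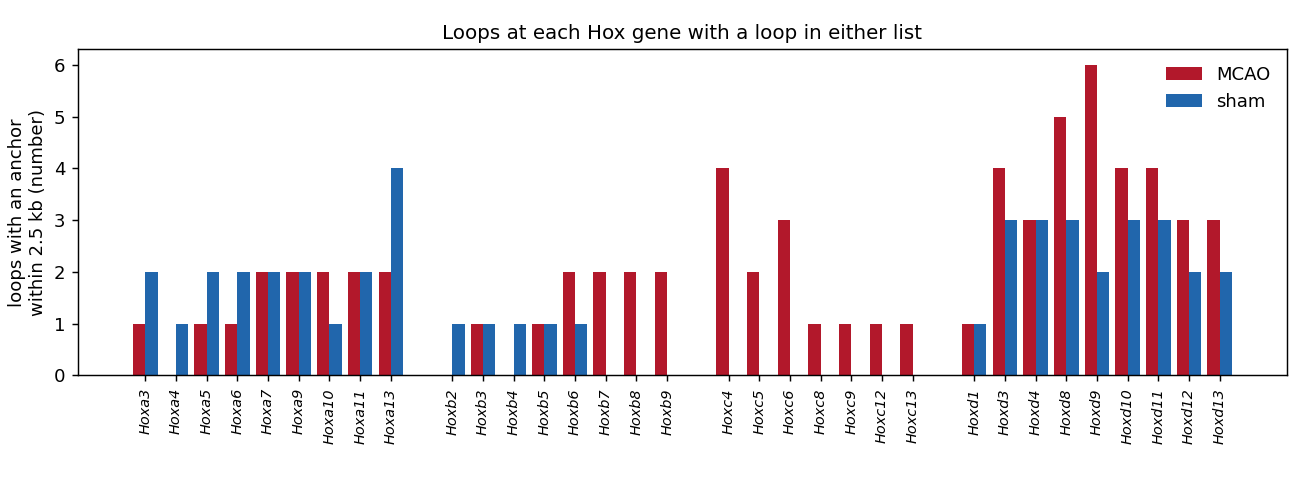
Number of loops with an anchor within 2.5 kb of each Hox gene that had a loop in either list, MCAO (left bar) and sham (right bar). Hoxd9 reached 6 loops in MCAO and 2 in sham, Hoxa13 had 2 and 4, and every HoxC bar is an MCAO bar.

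The HoxD cluster (chromosome 2, 74668225 to 74765142) reached into an interval of 575 kb between Mtx2, a mitochondrial import gene, and the predicted gene Gm50595. No protein-coding gene lies in this interval, and other kinds of genes were not counted. In MCAO, 4 loops ended there, at 279, 373, 448 and 544 kb from the cluster, with 11, 14, 45 and 19 PETs. In sham, 2 loops ended there, at 327 and 495 kb, with 44 and 27 PETs. Beyond this interval, over Gm50595 and its end, lay the far partner of the MCAO loop with the most PETs of all Hox loops, 68, whose anchors were 75549741 to 75634576 and 74666407 to 74773409. Its cluster-side anchor covered all 9 Hoxd genes. The sham list had the same contact with 25 PETs. Thus 3 of the 4 partner regions on this flank had a loop in both lists, and the nearest, 75044520 to 75057390, had one in MCAO alone.

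On the 5′ flank of HoxD each list held 1 loop, and their partners differed. The MCAO partner, 73894189 to 73954276, lay over Atp5g3, a subunit gene of mitochondrial ATP synthase, and within 2.5 kb of Atf2, a stress-activated transcription factor gene, with 28 PETs. Between Atp5g3 and Lnpk, an endoplasmic reticulum gene, lies an interval of 602 kb without protein-coding genes. The sham partner, 74022013 to 74084637, lay there, with 26 PETs. The MCAO list held a loop to that place too, with 12 PETs, whose near anchor (74656963 to 74663844) lay on Evx2, the homeobox neighbour of Hoxd13, 4.38 kb from it and so outside the 2.5 kb limit.

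**Figure D3:**
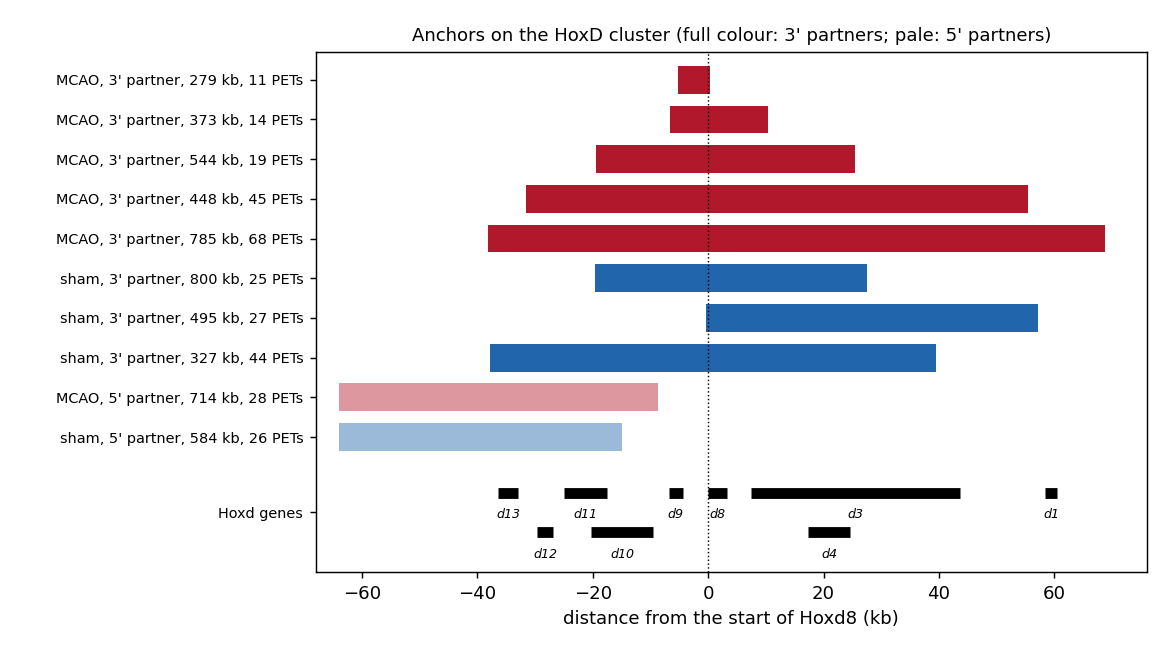
Extent of the cluster-side anchor of every HoxD loop in kb from the start of Hoxd8 (dotted line), with gene bodies at the bottom; labels give list, flank, distance of the partner from the cluster and PETs. All 8 anchors with 3′ partners cross the start of Hoxd8, and the 2 pale anchors with 5′ partners end before it.

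HoxA, on chromosome 6, had long loops on both flanks in both lists. The farthest 3′ partner lay 975 kb away in MCAO (12 PETs) and 958 kb away in sham (34 PETs). Both lay in an interval of 569 kb without protein-coding genes, between Npvf, a neuropeptide gene, and Gm38821. The nearer 3′ partner lay at Snx10, a sorting nexin gene of endosomes, with 15 PETs in MCAO and 11 in sham. On the 5′ flank the partners lay inside Jazf1, a zinc finger gene. MCAO had 1 such loop with 29 PETs, and sham had 3 with 11, 12 and 12. Of the 4 partner regions of HoxA 3 had loops in both lists, and the farther Jazf1 region (52942780 to 52967954) had one in sham alone.

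HoxB (chromosome 11, 96194316 to 96368254) had different partners in each list. In MCAO the partners were a site in Skap1, an adaptor gene of T cells (96542822 to 96557814, 17 PETs), and a wide anchor over Cbx1, Nfe2l1 and Copz2 (96807351 to 96880902, 49 PETs). In sham the only partner was another site in Skap1 (96721032 to 96747576, 16 PETs). Cbx1 encodes a heterochromatin protein, Nfe2l1 a transcription factor of proteasome genes and Copz2 a coatomer subunit. None of the 3 partner regions of HoxB had a Hox loop in both lists.

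HoxC (chromosome 15, 102921131 to 103036856) had short loops, 95.6 to 269 kb long, all in MCAO, and 4 of the 5 were shorter than any loop of the other clusters. The loops with the most PETs, 28 and 23, ran to Smug1, a DNA repair glycosylase gene, and the second of these also came within 2.5 kb of Cbx5, a paralog of Cbx1. A loop with 13 PETs ended in the interval of 116 kb between Hoxc4 and Smug1. A loop with 11 PETs ended over Copz1, a paralog of Copz2, and Gpr84, a receptor gene of immune cells, and within 2.5 kb of Zfp385a, a zinc finger gene. The loop within the cluster joined Hoxc12 and Hoxc13 to the 3′ end of Hoxc4 and had 15 PETs. Smug1 itself had 2 loops in MCAO, both of them these Hoxc loops, and 0 in sham.

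The window of 1 Mb around the midpoint of HoxC held 27 protein-coding genes, against 23 at HoxB, 14 at HoxA and 12 at HoxD. Loops in that window that did not touch a Hox gene numbered 7 in MCAO and 6 in sham at HoxC, 3 and 3 at HoxB, 6 and 8 at HoxA and 6 and 8 at HoxD. The median read density at Hox anchors was 22.9 reads per kb in MCAO and 17.2 in sham, while the median over all anchors was 25.5 and 22.4. Hox anchors thus lay further below their list in sham, and the part of this in the loop numbers was not tested.

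All loops of HoxA and HoxD, the sham loop of HoxB and 1 of its 2 MCAO loops were longer than the median of their list, and none of the HoxC loops was. The median span was 486 kb in MCAO (188 to 634) and 598 kb in sham (416 to 884), beside 309 and 377 kb over all loops. Of the MCAO Hox loops 10 of 16 were longer than the median of their list, and of the sham Hox loops 10 of 10. The median was 18 PETs per loop in MCAO and 20.5 in sham, beside 13 and 12 over all loops. Cluster-side Hox anchors were also wide, with a median of 35.2 kb in MCAO and 48.1 kb in sham, against 20.7 and 24.8 kb over all anchors. A further comparison took other loops whose mean anchor width reached the Hox median, 30.0 kb in MCAO and 44.6 kb in sham. Their median spans were 582 and 662 kb, and their medians were 17 and 28 PETs. Hox loops were thus not longer than other wide loops, and in sham had fewer PETs. Per kb of anchor and 1000000 library PETs, the authors' density, the Hox medians of 0.00843 in MCAO and 0.00626 in sham were below those of all loops, 0.00952 and 0.00704. The lower density held in sham at HoxA (0.00561), HoxB (0.00601) and HoxD (0.00682). In MCAO it held at HoxA (0.00535) and HoxD (0.00780), but HoxB (0.0103) and HoxC (0.0133) lay above all loops. Over the pooled Hox loops the higher PET numbers went with wider anchors. At HoxC the median was 15 PETs in MCAO, although its cluster-side anchors, with a median of 17.7 kb, were narrower than all anchors. Partners without a protein-coding gene within 2.5 kb made up 6 of 15 in MCAO and 4 of 10 in sham (40.0% in each), close to the 33.8% and 38.5% of all anchors. By cluster, such partners were 4 of 6 in MCAO and 3 of 4 in sham at HoxD, 1 of 3 and 1 of 5 at HoxA, 0 of 2 and 0 of 1 at HoxB, and 1 of 4 at HoxC in MCAO.

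**Figure D4:**
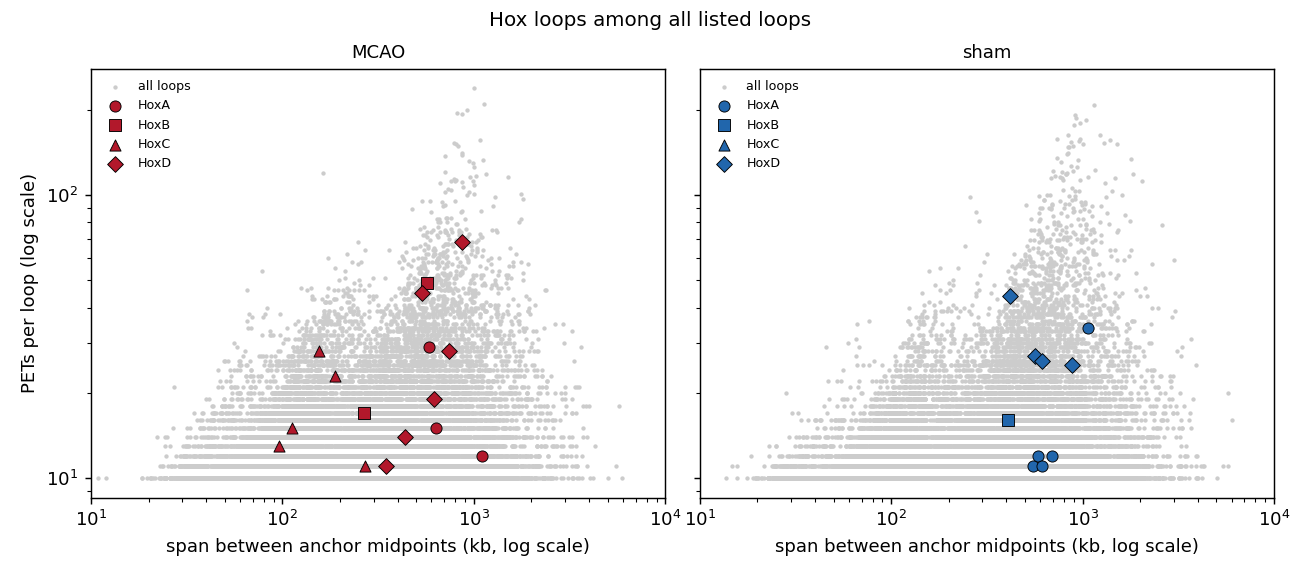
Span and PETs per loop for all listed loops (grey) and Hox loops (coloured symbols), MCAO left and sham right, both axes on a log scale. HoxC loops lie below 300 kb, and HoxA and HoxD loops lie between 349 and 1107 kb.

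Most Hox loops of the sham list had a partner in the MCAO list. A loop was called shared if the other list held one whose anchor midpoints both lay within 1 anchor width, taken from the wider of the loops. This held for 7 of 16 MCAO Hox loops (43.8%, 19.8 to 70.1), where 24.9% of all MCAO loops were shared. It held for 8 of 10 sham Hox loops (80.0%, 44.4 to 97.5), where 25.6% of all sham loops were. In each list some Hox loops matched the same loop of the other list, so these counts are not independent matches. The sham loop of 26 PETs on the 5′ flank of HoxD matched the MCAO loop at Evx2, which is outside the 2.5 kb limit. With matching by partner anchors of the same cluster, the shares were 43.8% in MCAO and 70% in sham. The allowed distance grows with anchor width. Other loops were therefore taken whose mean anchor width reached the Hox median of that mean, 30.0 kb in MCAO and 44.6 kb in sham. Of these, 31.3% were shared in MCAO and 51.9% in sham, and both values lie within the intervals of the Hox loops. With at least 15 PETs in both lists the shares were 27.3% in MCAO and 33.3% in sham, beside 28.1% and 32.6% of all loops with as many PETs, so the higher share of the Hox loops was not seen there. All shared Hox loops belonged to HoxA and HoxD.

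For the 6 pairs of Hox loops that were each other's nearest match, PETs were higher in MCAO in 3 and in sham in 3. The HoxD contact at Gm50595 had 68 PETs in MCAO and 25 in sham, and the HoxA contact with Jazf1 had 29 and 11. The opposite order was seen for the HoxD contact at 438 kb span in MCAO, with 14 PETs in MCAO and 44 in sham, and for the farthest HoxA contact, with 12 and 34. Anchor widths differed between the lists within these pairs. Per kb of anchor and 1000000 library PETs, the HoxD contact of 14 and 44 PETs had 0.0112 in MCAO and 0.00917 in sham, so the order turned. On this scale 4 pairs were higher in MCAO and 2 were higher in sham, namely the farthest HoxA contact (0.00488 and 0.00680) and the HoxD contact of 19 and 27 PETs (0.00557 and 0.00594).

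**Figure D5:**
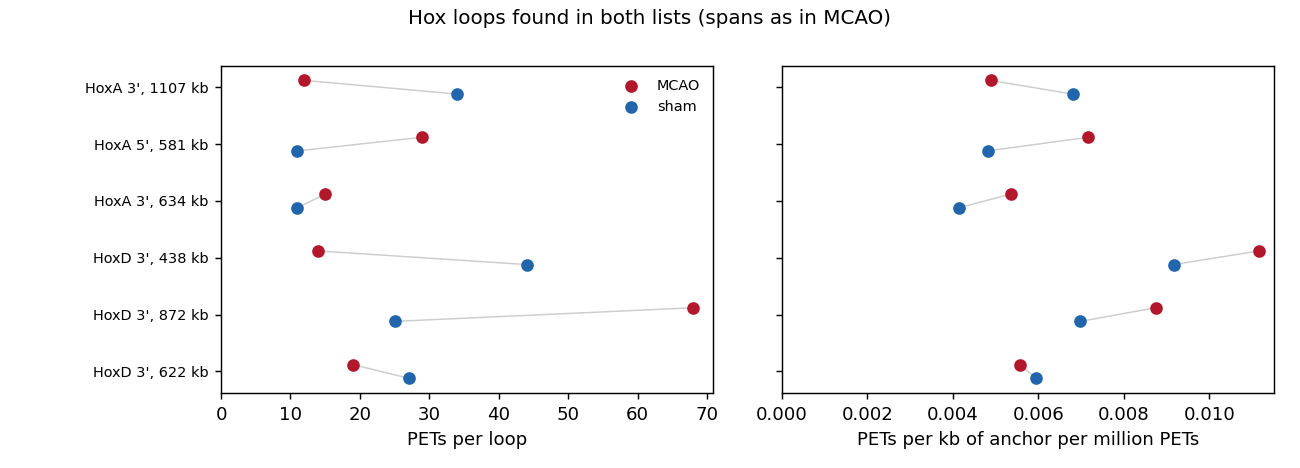
The 6 pairs of Hox loops found in both lists, as PETs per loop (left) and as PETs per kb of anchor per 1000000 library PETs (right), with each MCAO point just above its sham point. PETs differ in both directions, and 4 of 6 pairs are higher in MCAO on the right.

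Loops were also counted at genes for Hox cofactors and for Polycomb and Trithorax proteins. Hox loops joined places on the same chromosome, at most 1107 kb apart. None of these genes lies that near a Hox cluster. That limit is set by the Hox loops themselves, and the longest exceeded 92.7% of MCAO loops, so longer loops are listed. What the lack of a loop between these genes and the clusters means was not tested. Of the 9 cofactor genes of the Pbx, Meis and Pknox families, 4 had more loops in MCAO (30.1% of all genes) and 2 fewer (21.8% of all genes). Meis3 had 2 loops in MCAO and 0 in sham, and Meis1 had 4 and 6. Of 24 Polycomb genes 8 had more and 9 fewer. Pcgf5, of the ubiquitin ligase complex, had 3 and 0, Ezh1 2 and 0, and Ezh2, the main histone methyltransferase of the family, 0 and 2, while Jarid2 had 5 and 7. Of 6 Trithorax genes 2 had more and 1 fewer, with 3 and 0 at Men1 and 0 and 1 at Kmt2a. The median difference was 0 in each of these lists, as over all genes. Of 8 Evx and ParaHox genes, close relatives of the Hox genes, the neighbours Cdx2 and Pdx1 shared 1 MCAO loop of 64 PETs. Evx2 had 2 and 2 loops and Evx1 0 and 1.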

How the data were processed

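Hi-C of mouse cortex was deposited as 1 loop list per group. HiC-Pro, Bowtie2 and the build mm10 are named, without versions, per the submitters' processing notes; the loop caller is not given in the sources used here. Counts of PETs per loop and reads per anchor were deposited by the authors without depth scaling. The deposited density is a signal, PETs divided by the kb of both anchors and by library PETs in units of 1000000; each loop was checked against this and gave the same library total. The enrichment ratio is the authors' own and was not used. The deposited FDR is at most 0.05 in each list. The deposited hypergeometric p-values, a separate value, were used only to rank loops within a list.

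Genes came from RefSeq (GRCm38.p6), and distances were taken to gene bodies. All 26 Hox loops overlapped a Hox gene body, and the nearest loops outside the limit lay 4.38, 4.41, 4.47 and 8.55 kb away with 12, 11, 11 and 18 PETs. Spans run between anchor midpoints. Coordinates are as the files give them. Medians have intervals from order statistics. The members and gene lists were chosen with earlier results of these data known. Named were the members, genes at partner anchors, cluster neighbours, and listed genes with large differences. Shared anchor stretches, merged partner regions and the flanking gene families were picked after values were seen. Values of some genes are not reported here. Matching and counting were tested on simulated data. Alternatives changed the window, the gene part, the PET minimum, the depth, loop quality and the rule for shared loops. Python 3.11.15, pandas 2.3.3 and SciPy 1.17.1 were used.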

Additional observations from a re-analysis of the deposited data

How the results depend on the processing

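Of 94 values under other settings, 84 lay within 1.5 times the reported number of loops or, for shares and medians, within the 95% interval, and 10 did not. These intervals are wide: the share of MCAO Hox loops that were shared ran from 27.3 to 56.2%. Part of the 84 could not move. All Hox loops overlapped a gene body, so the 14 values with a window of 0 kb repeat the reported ones. Stricter settings also could not raise the HoxC number of 0 in sham. With at least 15 PETs per loop, HoxC had 3 loops in MCAO, HoxA had 1 in sham, and the totals were 11 in MCAO and 6 in sham. Loops to the 3′ flank then numbered 8 in MCAO, those to the 5′ flank 1 in sham, and 33.3% of sham Hox loops were shared, since the MCAO matches of 3 sham loops had 12, 12 and 14 PETs. Among loops whose hypergeometric p-value was at or below the median of their list, HoxA had 1 loop in MCAO and 1 in sham, and the sham total was 6. With a window of 10 kb, loops to the 5′ flank numbered 4 in MCAO and 6 in sham. HoxC had 0 sham loops with the 10 kb window too, the only setting that could have added any. After thinning MCAO to the sham depth 15 of 16 Hox loops stayed, and 14.7 were expected, a calculation added after seeing the data, as was matching by partner anchors. No paired analysis was possible because each group has 1 list. The lists begin at 10 PETs, so 11 to 13 PETs, as many Hox loops had, lie near the limit of what was listed.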

Other observations

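The flanks of the Hox clusters carry families of genes copied together with the clusters. Counting 21 such genes, chosen after their values were seen, 8 lay at the partner anchor of a Hox loop. Because of that choice, and with no share of other flanking genes beside it, this count shows no preference of Hox loops for these families. The heterochromatin genes Cbx1 (HoxB) and Cbx5 (HoxC) and the coatomer genes Copz2 (HoxB) and Copz1 (HoxC) were reached in MCAO and not in sham. Cbx3, of the same family and beside HoxA, was reached in neither list and had 0 loops in MCAO and 1 in sham. Atp5g3 (HoxD) was reached in MCAO, while Atp5g1 and Atp5g2, beside HoxB and HoxC, were reached in neither list. Snx10 (HoxA) was reached in both lists and its relative Snx11, beside HoxB, in neither. Skap1 (HoxB) was reached once in each list, and Skap2 (HoxA), with 5 loops in MCAO and 3 in sham, had no loop to Hox genes. Nfe2l1 (HoxB) was reached in MCAO, by the same loop as Cbx1. Nfe2, Nfe2l2, Nfe2l3, Calcoco1, Calcoco2, Hnrnpa1, Hnrnpa2b1 and Hnrnpa3 were reached in neither list. More loops of any kind were listed in MCAO at 10 of the 21 (30.1% of all genes) and fewer at 2 (21.8% of all genes).

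The partner regions also took part in loops that did not touch Hox genes. The Snx10 region had 4 such loops in MCAO and 4 in sham, and the region at Gm50595 had 6 and 4. The Cbx1 to Copz2 region, which had the Hoxb loop of 49 PETs in MCAO, had 0 other loops in MCAO and 3 in sham. The HoxD partner region of 135 kb between Mtx2 and Gm50595 (75213612 to 75348999) had none besides its Hox loops in either list.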
